A study of Mus musculus with 4 samples.

Results

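Complex I (NADH:ubiquinone oxidoreductase) is the entry point of the mitochondrial respiratory chain. Its members here were the genes whose symbol in the deposited tables begins with Nduf followed by a, b, c, s, v, ab or af, which gave 46 of 17575 listed genes. They fall into 11 core-named genes (8 Ndufs and 3 Ndufv), 27 accessory genes (14 Ndufa, 10 Ndufb, 2 Ndufc and Ndufab1) and 8 assembly factor genes (Ndufaf). All 46 passed the filter on low counts and were tested.

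The complex is L-shaped. Its matrix arm takes electrons from NADH through a flavin and a chain of iron-sulfur clusters to ubiquinone, and its membrane arm pumps protons. The catalytic core is conserved from bacteria, and part of it is encoded by mitochondrial DNA, whose genes were not analysed here. The accessory subunits surround that core, and the assembly factors help to build the complex without staying in it. Chondrocytes, the cells that make cartilage matrix, live in a tissue without blood vessels and rely largely on glycolysis.

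RNA-seq was done on chondrocytes of C57/Bl6 mice aged 10 days, which were released from rib cartilage with collagenase, passed through a filter and plated before RNA extraction. The 2 knockout (KO) libraries came from mice that carried the transgene Col2Cre(Tg) together with Kdm6a(fl/fl) and, as a second floxed gene, Kdm6b(fl/fl). Cre named for Col2, the cartilage collagen, deletes only in cells where the transgene is active. The 2 wild type (WT) libraries came from mice for which no allele is given. Kdm6a and Kdm6b encode demethylases of the repressive mark on a lysine of histone H3. The study text speaks of triplicates, 2 libraries per group were analysed here, and whether each was a different animal is not stated. The p-values therefore cover library-to-library spread only, which may be technical.

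Estimated counts summed to 32332044 and 32230980 in the KO libraries and to 31616619 and 31178248 in the WT libraries. The targeted gene Kdm6b measured 51.4 and 46.2 CPM (counts scaled to library size with the trimmed mean of M-values) in KO, against 131 and 118 CPM in WT, and Kdm6a measured 28.6 and 31.4 CPM in KO, against 52.6 and 56.9 CPM in WT. The chondrocyte markers Col2a1 and Sox9 were abundant in every library, with Col2a1 at 37111 and 36603 CPM in KO, against 26008 and 24370 CPM in WT, and Sox9 at 634 and 490 CPM in KO, against 665.8 and 612 CPM in WT. Of 10 chondrocyte markers 3 rose (Col2a1, Col9a1 and Matn3) and 2 fell (Comp and Matn1) at an edgeR adjusted p under 0.05. Over all tested genes 3.62% rose and 5.63% fell. Comp measured 124 and 138 CPM in KO, against 489 and 450.1 CPM in WT, and Matn3 measured 95.3 and 115 CPM in KO, against 23.8 and 30.7 CPM in WT. The Y-linked genes Ddx3y and Uty stayed at or below 0.158 CPM in every library. In bulk RNA a change in the number of cells of a type and a change in RNA per cell cannot be told apart.

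The promoters of 4 members that rose in KO (values below) are shown beside that of Ndufa10, whose level hardly differed between the groups. The sequences are from RefSeq (build GRCm38.p6, matched by gene number, since the files use mm9), cover the 250 bases before the annotated start and run 5′ to 3′ on the strand of the gene. Capitals mark any match, on either strand, to GCGCA followed by any base and GCGC (for the factor NRF1), CCGGAAG (for ETS factors), AAGATGGC (for YY1), CCAAT, or ACGTG (the core of a hypoxia response element).
Ndufb4, chr16:37654369-37654618, strand -: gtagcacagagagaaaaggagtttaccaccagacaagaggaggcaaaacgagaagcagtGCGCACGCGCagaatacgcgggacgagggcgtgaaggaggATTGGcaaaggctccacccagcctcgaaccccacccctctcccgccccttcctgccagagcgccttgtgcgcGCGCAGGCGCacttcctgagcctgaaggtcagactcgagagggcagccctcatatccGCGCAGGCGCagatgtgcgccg
Ndufs5, chr4:123718187-123718436, strand -: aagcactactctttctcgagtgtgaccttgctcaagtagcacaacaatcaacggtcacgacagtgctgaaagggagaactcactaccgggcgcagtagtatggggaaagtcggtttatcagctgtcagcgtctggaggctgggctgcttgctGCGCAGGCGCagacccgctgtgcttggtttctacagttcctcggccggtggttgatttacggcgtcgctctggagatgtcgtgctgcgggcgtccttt
Ndufb2, chr6:39592315-39592564, strand +: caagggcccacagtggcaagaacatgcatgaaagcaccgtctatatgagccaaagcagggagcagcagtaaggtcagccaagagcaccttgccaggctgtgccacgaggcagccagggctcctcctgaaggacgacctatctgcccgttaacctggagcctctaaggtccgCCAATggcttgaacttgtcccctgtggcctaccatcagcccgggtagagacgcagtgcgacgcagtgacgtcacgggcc
Ndufa3, chr7:3617123-3617372, strand +: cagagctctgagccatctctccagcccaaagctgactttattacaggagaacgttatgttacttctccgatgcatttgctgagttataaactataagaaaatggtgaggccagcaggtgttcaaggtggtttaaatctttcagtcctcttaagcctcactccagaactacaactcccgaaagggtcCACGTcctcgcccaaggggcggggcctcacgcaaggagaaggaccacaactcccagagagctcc
Ndufa10, chr1:92473759-92474008, strand -: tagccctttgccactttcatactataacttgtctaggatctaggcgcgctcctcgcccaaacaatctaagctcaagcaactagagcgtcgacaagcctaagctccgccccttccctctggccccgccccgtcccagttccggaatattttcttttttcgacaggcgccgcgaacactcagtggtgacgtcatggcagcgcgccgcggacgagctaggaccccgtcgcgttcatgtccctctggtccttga

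The Ndufb4 window held 3 NRF1 matches, whose first bases lay 191, 79 and 22 bases before the start, and a CCAAT match at 151 bases. The Ndufs5 window held an NRF1 match at 98 bases, the Ndufb2 window a CCAAT match at 79 bases and the Ndufa3 window an ACGTG match at 64 bases, and none of the 5 sets of letters was in the Ndufa10 window. Promoters were at hand for 40 members. The NRF1 letters were found in 7 of these 40 genes (17.5%), against 3.74% of 32851 promoters of the same length. The ETS letters were found in 5 (12.5%, against 6.91%), CCAAT in 14 (35.0%, against 33.8%), ACGTG in 5 (12.5%, against 16.6%) and the YY1 letters in 0 (against 1.56%). Of the 6 members with a promoter that passed the test below, 2 held the NRF1 letters, and of the 34 others 5 did. Besides Ndufa10, members with a log2 fold change (KO minus WT) of 0.09 or less were mixed. Ndufaf4 held an NRF1 match at 113 bases, Ndufa11 an NRF1 match at 60 bases and Ndufaf2 CCAAT matches at 87 and 82 bases. Ndufaf5 and Ndufs7 held no match. Member promoters had a median GC content of 58.2%, against 52.4% over all promoters, and the NRF1 letters are rich in G and C.

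Members differed widely in level. In FPKM, the deposited values per length and depth, the mean over the 4 libraries ran from 11.9 to 45.9 for core-named genes (median 27.0), from 7.68 to 193 for accessory genes (median 38.8) and from 2.75 to 25.7 for assembly factor genes (median 8.71). Ndufa4 stood highest, at 234 and 208 FPKM in KO and 176 and 154 FPKM in WT. Its product was first assigned to complex I and is now placed in complex IV. Next came Ndufb4, a subunit of the membrane arm, at 85.9 and 78.2 FPKM in KO and 59.5 and 50.4 FPKM in WT. Ndufa4 lay above Ndufb4 in every library.

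Among core-named genes Ndufs3, a core protein of the matrix arm, was highest (49.0 and 51.9 FPKM in KO, 43.7 and 39.1 FPKM in WT), and Ndufs6, a zinc-binding accessory subunit, lay beside it (49.6 and 47.5 FPKM in KO, 42.0 and 38.5 FPKM in WT). These neighbours overlapped within each group. The lowest were Ndufs4 (14.9 and 12.9 FPKM in KO, 10.3 and 9.52 FPKM in WT), an accessory subunit whose loss in mice gives a model of Leigh syndrome, and Ndufs1 (24.2 and 21.1 FPKM in KO, 19.4 and 19.3 FPKM in WT), the largest core subunit. The lowest accessory genes were Ndufa11, at a mean of 7.68 FPKM over the 4 libraries, and Ndufa13, at 17.8 FPKM.

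The assembly factor genes stood lowest as a class and ranged widely among themselves. Ndufaf4, which acts with Ndufaf3 early in assembly of the matrix arm, had the highest level of its class (26.6 and 26.3 FPKM in KO, 23.99 and 26.1 FPKM in WT), followed by Ndufaf2, a factor of the late stages (18.9 and 18.1 FPKM in KO, 17.8 and 17.1 FPKM in WT). Ndufaf3 itself was near the bottom at 3.03 and 2.95 FPKM in KO and 3.04 and 2.01 FPKM in WT, beside Ndufaf5, which hydroxylates Ndufs7, at 2.86 and 2.69 FPKM in KO and 3.04 and 2.42 FPKM in WT. Ndufaf3 and Ndufaf5 overlapped in WT.

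The main comparison asked whether complex I genes differed between KO and WT chondrocytes. As a group they lay higher in KO: 44 of 46 members had a log2 fold change (KO minus WT) above 0, against 50.6% of all 13773 tested genes. The share above 0 moved with gene length. Among genes outside complex I it was 71.81% below 600 bases, 74.96% from 600 to 1000 and 68.58% from 1000 to 1500. It was 57.9% from 1500 to 2500, 46.95% from 2500 to 4000 and 36.6% above 4000. In these ranges, up to 4000 bases, 16 of 16, 15 of 15, 5 of 6, 5 of 5 and 3 of 4 members lay above 0. The median log2 fold change of the members was 0.26, against 0.0044 over all tested genes. At an edgeR adjusted p under 0.05, 9.25% of tested genes changed. 8 members rose and 0 fell, and 38 did not pass, where 3.62% of tested genes rose and 5.63% fell. 26 members had an unadjusted p under 0.05, against 29.2% of tested genes. In 37 members both KO libraries lay above both WT libraries (80.4%, against 30.9% of tested genes), and in 0 members both lay below, against 30.7%. DESeq2 called 11 members, all higher in KO, where 3.68% of its genes rose. They were the 8 above with Ndufa4, Ndufa8 and Ndufs4. Together the members took 0.149% and 0.140% of all counts in the KO libraries, against 0.123% and 0.110% in the WT libraries.

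**Figure D1:**
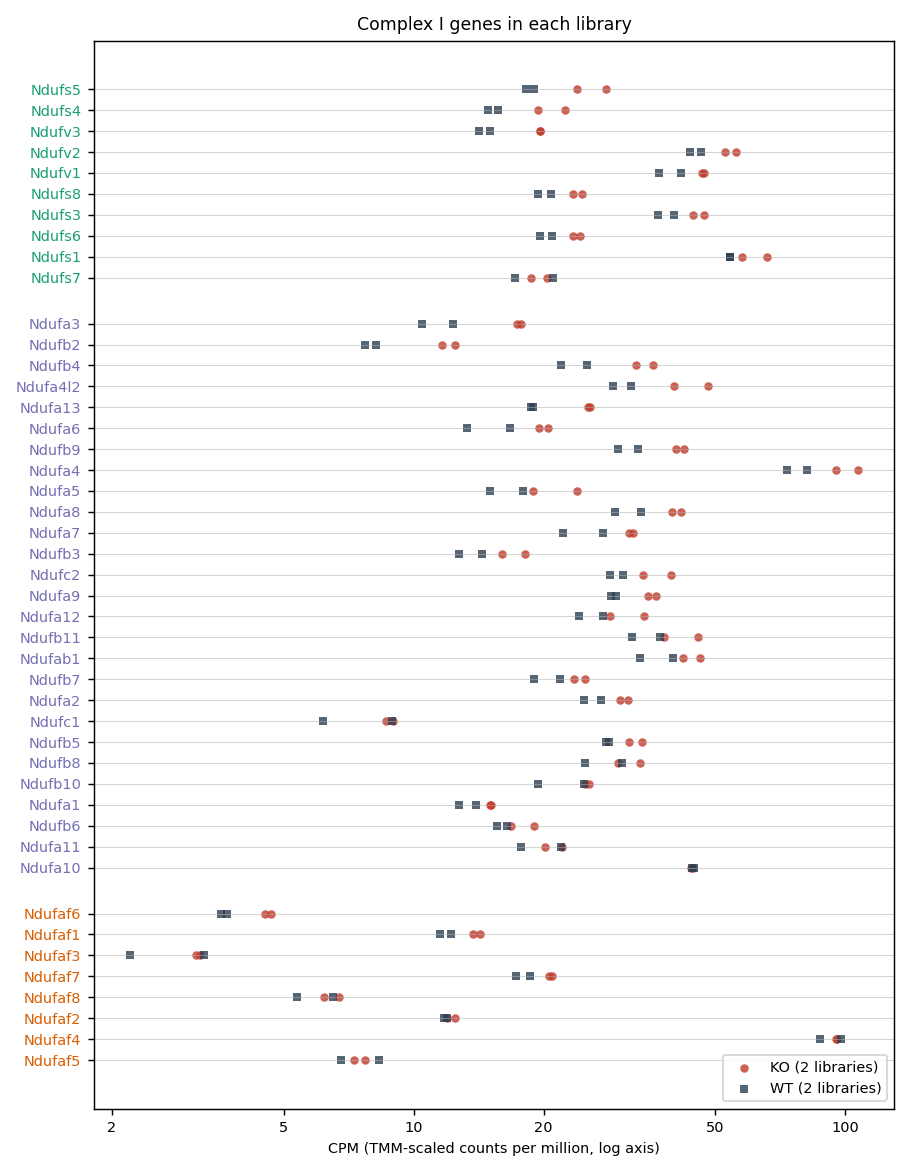
Level of 45 members in each library, in CPM on a log axis, with KO libraries as circles and WT libraries as squares and genes ordered by fold change within core-named, accessory and assembly factor genes. In 36 of the 45 rows both circles lie to the right of both squares, and the rows of Ndufa10 and Ndufaf5 show no such gap.

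The calls depended on single libraries and on gene length. None of the 8 calls held in every edgeR fit with 1 library left out. Calls over all tested genes also varied widely between those fits. Among the 8, Ndufa3 had the largest log2 fold change and Ndufb9 the smallest. With 1 library left out these ran from 0.51 to 0.75 for Ndufa3 and from 0.33 to 0.48 for Ndufb9. Short genes as a whole lay higher in KO, and with the trend of each library on gene length taken out in the edgeR fit 0 members passed, with 10 at an unadjusted p under 0.05 and 442 of all tested genes (3.21%) rising. 35 of 46 members then still had a log2 fold change above 0, with a median of 0.10.

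The nuclear catalytic core consists of 7 genes, none of which passed the test. Their log2 fold changes had a median of 0.25, all were above 0, and 5 genes had an unadjusted p under 0.05 in edgeR. Among all tested genes 9.25% changed, 50.6% lay above 0 and 29.2% had an unadjusted p under 0.05. Among genes outside complex I the share above 0 was 74.96% from 600 to 1000 bases and 57.9% from 1500 to 2500. It was 46.95% from 2500 to 4000. The catalytic genes lie in these ranges. Ndufs7, which carries the last iron-sulfur cluster before ubiquinone, measured 18.7 and 20.4 CPM in KO, against 21.1 and 17.2 CPM in WT. Its groups overlapped, and its log2 fold change was 0.03 (SE 0.13, edgeR adjusted p = 0.893).

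The NADH-binding end of the matrix arm gave similar values. Ndufv1, which binds the flavin and NADH, measured 46.6 and 46.9 CPM in KO, against 41.5 and 36.9 CPM in WT (log2 fold change 0.25, SE 0.085, edgeR adjusted p = 0.112). Its iron-sulfur partner Ndufv2 measured 55.8 and 52.5 CPM in KO, against 46.4 and 43.6 CPM in WT (log2 fold change 0.27, SE 0.078, edgeR adjusted p = 0.0812). Both were separated between the groups without passing. Ndufs1, which holds further clusters, measured 65.7 and 57.5 CPM in KO, against 54.1 and 54.1 CPM in WT. Ndufs3 measured 44.4 and 47.0 CPM in KO, against 40.1 and 36.8 CPM in WT, and Ndufs8, another iron-sulfur protein, 23.3 and 24.5 CPM in KO, against 20.7 and 19.4 CPM in WT. Ndufs1, Ndufs3 and Ndufs8 had log2 fold changes of 0.19, 0.25 and 0.25, and the groups of each did not overlap. Both KO libraries lay above both WT libraries in 30.9% of all tested genes.

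4 genes carry core-type names but encode accessory subunits, and 2 of them passed. Over all tested genes 3.62% rose, and in 30.9% both KO libraries lay above both WT libraries. Ndufs5, on the intermembrane side of the membrane arm, rose to 27.9 and 23.9 CPM in KO, against 18.9 and 18.2 CPM in WT (log2 fold change 0.48, SE 0.11, edgeR adjusted p = 0.0429). Ndufv3, at the NADH-binding end, rose to 19.6 and 19.6 CPM in KO, against 14.99 and 14.2 CPM in WT (log2 fold change 0.43, SE 0.10, edgeR adjusted p = 0.0487), which is near the threshold. Ndufs4 measured 22.4 and 19.4 CPM in KO, against 15.7 and 14.8 CPM in WT. It did not pass (log2 fold change 0.45, SE 0.11, edgeR adjusted p = 0.0572), although its groups did not overlap. Ndufs6 measured 24.3 and 23.4 CPM in KO, against 20.9 and 19.7 CPM in WT. The median log2 fold change of these 4 genes was 0.44, against 0.25 for the 7 catalytic genes, and the difference was not tested. With the gene length offset these medians were 0.24 and 0.16. Their median length was 694 bases, against 1541 bases for the catalytic genes.

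6 of the 27 accessory genes rose and 0 fell. The other 21 did not pass, and the class median of the log2 fold change was 0.30. Without Ndufa4 and Ndufa4l2, 5 of 25 accessory genes rose and the median was 0.28, where 3.62% of all tested genes rose. The largest difference was that of Ndufa3, a small single-span membrane subunit, at 17.3 and 17.7 CPM in KO, against 12.3 and 10.4 CPM in WT. The KO libraries stood clear of the WT libraries, and Ndufa3 rose 1.54-fold (log2 fold change 0.62, SE 0.12, edgeR adjusted p = 0.0313). Ndufb2, of the membrane arm, measured 12.4 and 11.6 CPM in KO, against 8.16 and 7.70 CPM in WT. It rose 1.52-fold (log2 fold change 0.60, SE 0.12, edgeR adjusted p = 0.0352). Ndufb4 measured 35.9 and 32.8 CPM in KO, against 25.2 and 21.9 CPM in WT, and rose 1.46-fold (log2 fold change 0.54, SE 0.10, edgeR adjusted p = 0.0275).

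Ndufa13, also known as GRIM-19, had close replicates in both groups. It measured 25.3 and 25.7 CPM in KO, against 18.7 and 18.9 CPM in WT, and rose 1.36-fold (log2 fold change 0.44, SE 0.087, edgeR adjusted p = 0.0306). Its estimated counts were not whole numbers, as for 4 other members (Ndufa2, Ndufaf7, Ndufb11 and Ndufs1), so some of its reads were divided with other entries. Ndufb9, a membrane arm subunit of the LYR protein family, measured 42.3 and 40.6 CPM in KO, against 33.1 and 29.7 CPM in WT, and rose 1.32-fold (log2 fold change 0.40, SE 0.087, edgeR adjusted p = 0.0400). Its groups were separated, as were those of each of the 8 members that rose. These members were picked by a test on the same libraries, so their separation adds no support to the calls.

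Ndufa4 and its relative Ndufa4l2 were both higher in KO. Ndufa4l2, which is induced by hypoxia in other cells, measured 48.1 and 40.0 CPM in KO, against 31.9 and 29.0 CPM in WT. It rose 1.45-fold (log2 fold change 0.53, SE 0.11, edgeR adjusted p = 0.0362). Ndufa4 measured 107 and 94.97 CPM in KO, against 81.3 and 73.1 CPM in WT, and fell just short of the threshold (log2 fold change 0.39, SE 0.092, edgeR adjusted p = 0.0509). In the authors' deposited table, a DESeq2 comparison, Ndufa4 passed with an adjusted p of 0.0201 and a log2 fold change of 0.39. Counts of both genes were whole numbers in every library. Per length, Ndufa4l2 lay at 50.6 and 42.0 FPKM in KO and 33.1 and 29.3 FPKM in WT, below Ndufa4 in every library.

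At the other end of the accessory class, Ndufa10, a matrix-facing subunit related to nucleoside kinases, measured 44.3 and 43.8 CPM in KO, against 44.6 and 44.0 CPM in WT. Its log2 fold change was -0.01 with the smallest SE of the members described here (0.071, edgeR adjusted p = 0.947). Ndufa11, of the membrane arm, measured 20.1 and 22.001 CPM in KO, against 21.9 and 17.7 CPM in WT, with overlapping groups and a log2 fold change of 0.09 (SE 0.13). The other accessory genes lay between these ends. Besides Ndufa10 and Ndufa11, the groups overlapped in 2 accessory genes, Ndufb8 and Ndufc1. In the other 23 both KO libraries lay above both WT libraries (85.2%, against 30.9% of all tested genes). Ndufc1, a small membrane subunit, measured 8.60 and 8.96 CPM in KO, against 8.89 and 6.16 CPM in WT. Ndufa8, on the intermembrane side, measured 41.7 and 39.6 CPM in KO, against 33.5 and 29.3 CPM in WT, and missed the edgeR threshold with an adjusted p of 0.0580. The 12 genes of the membrane arm series Ndufb and Ndufc had a median log2 fold change of 0.26 with 3 rising. The 12 Ndufa genes other than Ndufa4 and Ndufa4l2 had a median of 0.33 with 2 rising, where 3.62% of all tested genes rose. Ndufab1, the mitochondrial acyl carrier protein, measured 45.9 and 42.1 CPM in KO, against 39.8 and 33.4 CPM in WT, and did not pass (log2 fold change 0.27, SE 0.11, edgeR adjusted p = 0.160).

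None of the 8 assembly factor genes passed in edgeR, none had an unadjusted p under 0.05, and none passed in DESeq2. Their median log2 fold change was 0.16 and both KO libraries lay above both WT libraries in 4 of 8, against 30.9% of all tested genes. In edgeR 9.25% of all tested genes changed and 29.2% had an unadjusted p under 0.05. Ndufaf6, which acts early in assembly, measured 4.67 and 4.51 CPM in KO, against 3.57 and 3.69 CPM in WT (log2 fold change 0.34, SE 0.17, edgeR adjusted p = 0.228). Ndufaf1, which works with Ecsit and Acad9 on the membrane arm, measured 14.2 and 13.7 CPM in KO, against 11.5 and 12.2 CPM in WT (log2 fold change 0.24, SE 0.11, edgeR adjusted p = 0.212). In both genes the KO libraries lay above the WT libraries.

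Of the other 6 assembly factors, Ndufaf2 and Ndufaf7 were separated between the groups and 4 overlapped. Among all tested genes 30.9% had both KO libraries above both WT libraries. Ndufaf4 measured 95.8 and 94.9 CPM in KO, against 87.5 and 97.8 CPM in WT, with the KO libraries inside the WT range (log2 fold change 0.04, SE 0.080). Ndufaf5 measured 7.72 and 7.27 CPM in KO, against 8.32 and 6.78 CPM in WT (log2 fold change -0.01, SE 0.15). Ndufaf2 measured 12.5 and 12.0 CPM in KO, against 11.9 and 11.8 CPM in WT. Ndufaf3 measured 3.20 and 3.13 CPM in KO, against 3.26 and 2.21 CPM in WT. Its WT libraries enclosed both KO libraries, and its log2 fold change was 0.21 (SE 0.24). Ndufaf7, a methyltransferase, and Ndufaf8, a partner of Ndufaf5, did not pass either, with a log2 fold change of 0.21 ± 0.097 (SE) for Ndufaf7 and of 0.12 ± 0.16 (SE) for Ndufaf8.

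**Figure D2:**
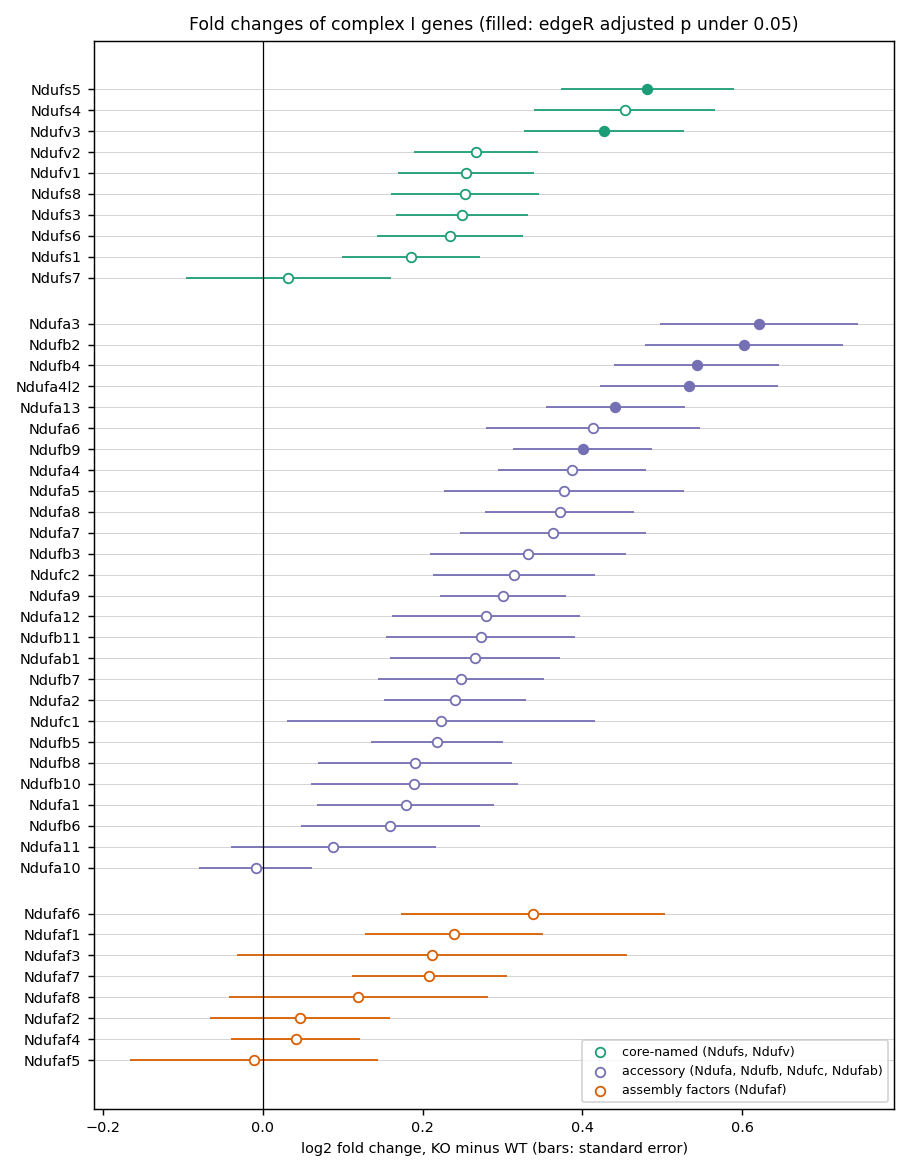
Log2 fold change of 45 members, KO minus WT, with its standard error as a bar, grouped and coloured by class, where filled points have an edgeR adjusted p under 0.05. The 8 filled points lie between 0.40 and 0.62 and belong to core-named and accessory genes, and the 8 assembly factor genes lie between -0.01 and 0.34.

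The classes were also set side by side within each library. The mean log2 CPM of the accessory genes exceeded that of the assembly factor genes by 1.34 and 1.30 in KO, against 1.19 and 1.12 in WT, and the core-named genes exceeded the assembly factor genes by 1.59 and 1.60 in KO, against 1.46 and 1.47 in WT. Neither pair of groups overlapped. The accessory genes lay below the core-named genes by 0.25 and 0.30 in KO, against 0.27 and 0.35 in WT, and here the groups overlapped. Accessory, core-named and assembly factor genes had median lengths of 602, 940 and 1272 bases. With the gene length offset their median log2 fold changes were 0.10, 0.17 and 0.07.

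**Figure D3:**
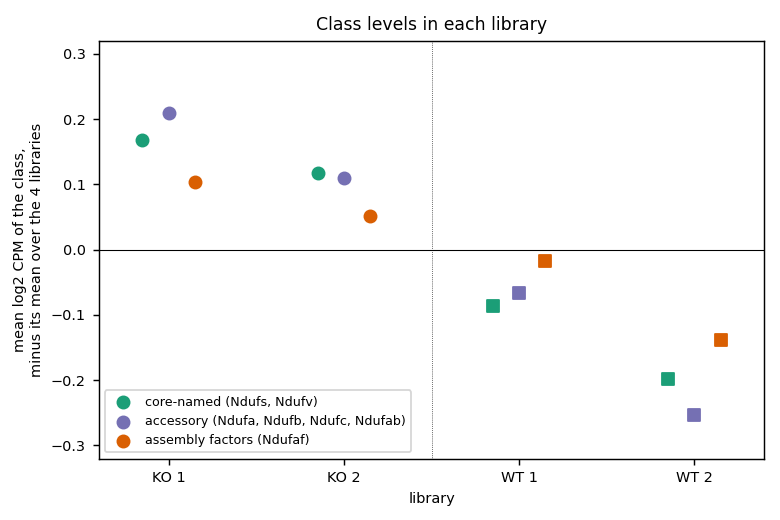
Mean log2 CPM over the genes of each class in each library, minus the mean of that class over the 4 libraries, with KO libraries as circles and WT libraries as squares. Accessory genes reach 0.21 and 0.11 in KO and -0.07 and -0.25 in WT, while assembly factor genes reach 0.10 and 0.05 in KO and -0.02 and -0.14 in WT.

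Libraries of the same group also differed along this axis. 42 of 46 members were higher in WT replicate 1 than in WT replicate 2, with a median log2 difference of 0.14 against 0.0028 over all tested genes, and 36 were higher in KO replicate 1 than in KO replicate 2, with a median of 0.06. For the 890 tested genes shorter than 1000 bases these medians were 0.10 and 0.05. Summed over members, the level was 1474 and 1385 CPM in KO, against 1233 and 1132 CPM in WT.

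Gene length moved with the fold change in these libraries. Among tested genes outside complex I the median log2 fold change was 0.19 below 600 bases, 0.18 from 600 to 1000, 0.12 from 1000 to 1500, 0.05 from 1500 to 2500, -0.02 from 2500 to 4000 and -0.09 above 4000 bases. Members in the same ranges had medians of 0.35 (16 genes), 0.25 (15), 0.27 (6), 0.27 (5) and 0.06 (4), with 0 members above 4000 bases. 40 of 46 members lay above the median of the other genes in their range. The 8 members that rose were between 349 and 1266 bases long, and 7.45% of the other genes rose both below 600 bases and from 600 to 1000. Across the 46 members Spearman's rho between length and log2 fold change was -0.31, as a description over genes measured in the same libraries. With the offset, which brought the other genes to medians between -0.01 and 0.0003 above 600 bases and to -0.06 below, the smallest adjusted p of a member was 0.0752, for Ndufa4l2.

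**Figure D4:**
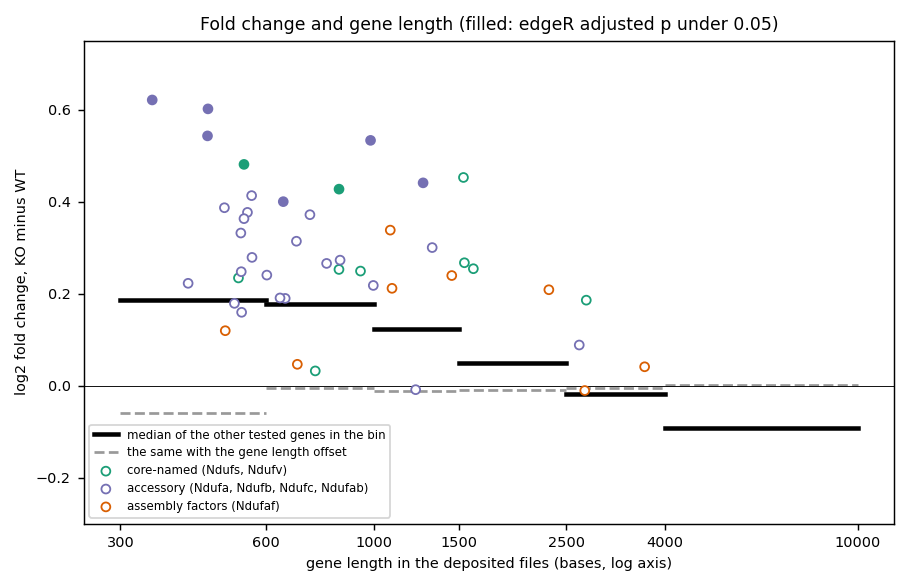
Log2 fold change of 45 members against gene length in bases on a log axis, coloured by class and filled where the edgeR adjusted p was under 0.05. Solid bars give the median of the other tested genes in each length range, which runs from 0.19 in the shortest range to -0.09 in the longest, and dashed bars the same medians with the gene length offset.

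Complex I was set beside the other complexes of the respiratory chain and the mitochondrial ribosome, which gave medians in the same direction. ATP synthase subunits had a median log2 fold change of 0.29 with 4 of 15 rising, complex IV subunits 0.28 with 2 of 13 rising, complex II subunits 0.20 with 0 of 4, complex III subunits 0.20 with 0 of 9, and mitochondrial ribosomal protein genes 0.19 with 4 of 78. 0 genes of these 5 groups fell, where 3.62% of all tested genes rose and 5.63% fell. Differences between complex I and these groups were not tested. With the length offset their medians were 0.13, 0.04, 0.11, 0.01 and 0.05, against 0.10 for the 46 members.

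Genes that serve complex I without the Nduf name were counted next. Over all 13773 tested genes 3.62% rose, 5.63% fell and 29.2% had an unadjusted p under 0.05 in edgeR. Of 13 other assembly genes 0 rose and 0 fell in edgeR, 4 had an unadjusted p under 0.05, and their median log2 fold change was 0.23. Ecsit and Acad9, the partners of Ndufaf1, measured 16.1 and 18.4 CPM in KO, against 14.7 and 14.4 CPM in WT, and 39.3 and 36.3 CPM in KO, against 38.8 and 37.3 CPM in WT. Ecsit was separated between the groups and Acad9 was not. Of 16 regulators of mitochondrial biogenesis 0 rose and 0 fell in edgeR, 1 had an unadjusted p under 0.05, and their median was -0.07. Nrf1, whose product binds the NRF1 letters marked in the promoters above, measured 34.6 and 34.2 CPM in KO, against 36.2 and 36.8 CPM in WT (log2 fold change -0.09, SE 0.074, edgeR adjusted p = 0.472). Of 15 genes of iron-sulfur cluster assembly and 21 of mitochondrial import and proteolysis 0 rose and 0 fell in edgeR, with medians of 0.14 and 0.09. The unadjusted p was under 0.05 for 1 and 5 of them.

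Upstream and parallel electron donors changed in single genes. Of 22 genes that supply NADH 2 rose, the malate dehydrogenase gene Mdh1 (log2 fold change 0.34) and Slc25a13, the aspartate-glutamate carrier of the malate shuttle (0.51), and 0 fell. Among 13 genes that feed ubiquinone by other routes the choline dehydrogenase gene Chdh (1.81) and the electron transfer flavoprotein gene Etfb (0.51) rose, and Gpd2, the mitochondrial glycerol phosphate dehydrogenase, fell (-0.34). Chdh was low in level, at 3.57 and 2.92 CPM in KO, against 0.664 and 1.19 CPM in WT (SE 0.32). For comparison, 3.62% of all tested genes rose and 5.63% fell. Beside Ndufa4l2, 2 of 20 hypoxia response genes rose, Ldha (0.54) and Higd1a (0.38), and 2 fell, Vegfa (-0.86) and Adm (-0.70), with a list median of 0.08. Adjusted p-values from edgeR for these 9 genes ran from 0.00935 to 0.0431.

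**Figure D5:**
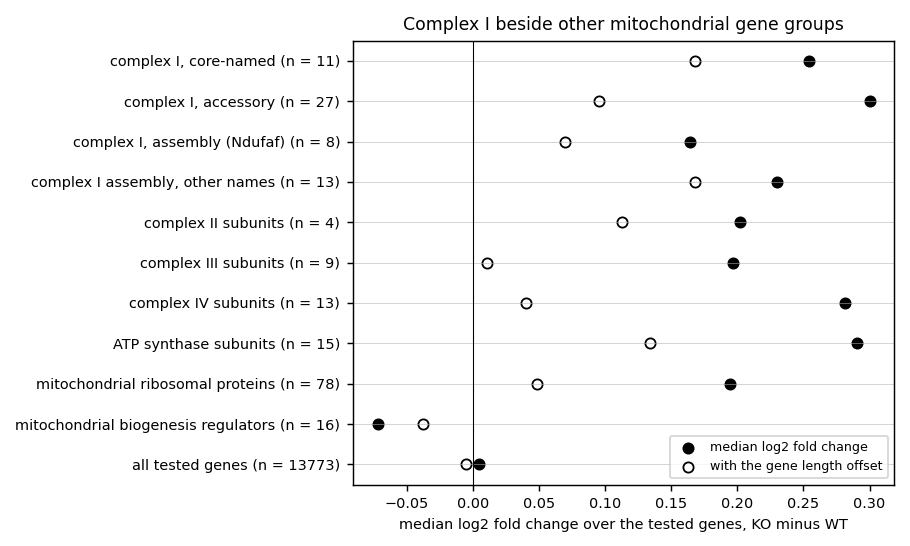
Median log2 fold change (KO minus WT) over the tested genes of each group, with filled points for the edgeR fit and open points for the fit with the gene length offset, and the number of genes in brackets. The accessory genes of complex I move to 0.10 with the offset, against 0.30 without it, and the 13773 tested genes stay near 0 in both.

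Markers of other cells differed between the groups in some lists and not in others. Over all tested genes 3.62% rose and 5.63% fell in edgeR. Both KO libraries lay above both WT libraries in 30.9% of tested genes and below them in 30.7%. Summed levels of endothelial markers were 84.3 and 69.9 CPM in KO, against 115 and 107 CPM in WT, with 3 of 7 tested markers falling. Macrophage markers summed to 20.9 and 22.001 CPM in KO, against 30.3 and 27.9 CPM in WT, with 0 of 5 called, and erythroid markers to 10.7 and 12.2 CPM in KO, against 22.7 and 27.9 CPM in WT, with 3 of 5 falling. Smooth muscle markers summed to 183 and 186 CPM in KO, against 59.6 and 72.9 CPM in WT, with 2 of 5 rising (Acta2 and Tagln). Most of this sum was Acta2, at 168 and 166 CPM in KO, against 48.8 and 61.2 CPM in WT. Of the 5 tested markers 4 were higher in KO and 1, Myh11, was lower (log2 fold change -0.68). Skeletal muscle markers, from a tissue rich in mitochondria, summed to 11.3 and 30.8 CPM in KO, against 14.7 and 14.98 CPM in WT, with 1 of 7 rising. Osteoblast markers summed to 67.1 and 107 CPM in KO, against 106 and 148 CPM in WT, with 8 of 8 lower in KO and 1 (Bglap) falling, and neutrophil markers to 62.7 and 27.3 CPM in KO, against 60.0 and 109.6 CPM in WT, with 6 of 6 tested markers lower in KO and 0 called. The sums of skeletal muscle, osteoblast and neutrophil markers overlapped between the groups. Most of the osteoblast sum was Col1a1, at 63.0 and 101 CPM in KO, against 96.2 and 138 CPM in WT. In 6 of 8 osteoblast markers both KO libraries lay below both WT libraries. Sums also overlapped for osteoclast markers (51.2 and 67.5 CPM in KO, against 61.5 and 71.5 CPM in WT, 0 of 3 called), tendon markers (78.2 and 175 CPM in KO, against 107 and 150.4 CPM in WT, 0 of 4 called) and adipocyte markers (12.3 and 12.6 CPM in KO, against 14.5 and 12.0 CPM in WT, with 1 of 2 falling). Schwann cell markers summed to 55.3 and 42.6 CPM in KO, against 42.1 and 40.4 CPM in WT, with 1 of 6 rising and 1 falling. Most of the osteoclast sum was Ctsk, of the tendon sum Thbs4 and of the adipocyte sum Fabp4. S100b was the largest part of the Schwann cell sum in every library. The gene Des is on both muscle lists. No listed marker of these lists was at 0 in all libraries. Their part in the values of complex I genes was not tested.

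In the table the authors deposited (the authors' deposited table), 44 of 46 members had a log2 fold change (knockout over control) above 0, and 8 rose at the authors' adjusted p under 0.05, where 3.33% of its 17529 genes rose. 7 of those 8 were among the 8 members that rose in edgeR. Ndufa4 passed in the authors' deposited table and missed the threshold in edgeR, and Ndufv3 passed in edgeR, while its adjusted p in the authors' deposited table was 0.0618.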

How the data were processed

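Expression was measured by RNA-seq in 2 KO and 2 WT libraries, grouped by sample title. The submitters' processing notes name Bowtie2 2.2.5 and the build mm9; the counting tool, the annotation release and the strand setting were not stated there. Each library's table has 1 line per gene with an expected count and its FPKM, per the file headers, both made by the authors. Genes missing from a library's table entered as 0. A separate comparison by the authors gives, per the file headers, normalized signal means, the log2 fold change and the p-value, raw and adjusted.

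Expected counts were rounded and compared between KO and WT in edgeR 4.0.16 (R 4.3.3) with TMM scaling, filterByExpr and the quasi-likelihood F test. Adjustment followed Benjamini and Hochberg over all 13773 tested genes, with calls at 0.05. The SE was derived as the absolute log2 fold change divided by the root of F. Depth was 31178248 to 32332044 counts per library, and n was 2 per group. The procedure was tested on simulated data. Alternatives used DESeq2 1.42.0 and limma 3.58.1 on log2 FPKM plus 0.1 or 1, with FPKM of at least 1 in 2 libraries. The gene length offset, a lowess trend on log2 length of each library's log2 CPM relative to the mean over libraries, and DESeq2 with a library left out were chosen after seeing the data.

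The members and lists were chosen with earlier results of these data known. Members named with full values were those called (at most 14), the catalytic genes, in each class the 2 highest and 2 lowest by FPKM and the 2 largest rises and falls, and Ndufa4 with Ndufa4l2. 1 member is counted among the 46 but is not reported here singly. Ndufa8, Ndufab1, Ndufaf7, Ndufaf8, Ndufc1, Ecsit, Acad9 and Nrf1 were named after their values were seen. Short genes with processed copies elsewhere in the genome may share reads with them.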

Additional observations from a re-analysis of the deposited data

How the results depend on the processing

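With 2 libraries per group the calls of complex I genes are fragile, and Ndufaf3, the member with the fewest counts, had the largest SE (0.24). The 8 members called remained called with DESeq2 size factors (8 members), upper-quartile scaling (9), an average of at least 5 CPM (9), DESeq2 (11), limma on FPKM (9, and 10 with a pseudocount of 1) and transcript entries summed with their gene (9).

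Counts of changed genes, and of complex I genes among them, were 720 and 1 with no filter on low counts, 0 and 0 with limma on unfiltered FPKM, where more low genes are tested, and 1127 and 0 with the gene length offset. The replicate numbers share only a number (correlation of deviations 0.107), and with the replicate block 2316 genes and 18 members were called. Leaving out 1 library gave 0 to 1275 genes and 0 to 7 members in edgeR, and 634, 783, 544 and 417 genes with 0, 2, 0 and 0 members in DESeq2 (without KO replicate 1, KO replicate 2, WT replicate 1 and WT replicate 2). With 1 library left in a group, that library is assumed to vary like those of the other group. The cause was not tested.

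The median log2 fold change of assembly factor genes was 0.075 with an average of at least 5 CPM, 0.085 to 0.23 with 1 library left out (0.083 in DESeq2 without WT replicate 2) and 0.069 with the gene length offset, and that of accessory genes 0.096 with the offset.

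Of the 26 members named by the rule above, 8 changed sign under some alternative, among them Ndufs6 and Ndufaf3, whose log2 fold changes were 0.23 and 0.21. Outside these 26, Ndufc1 and Ndufaf8 also changed sign, from 0.22 and 0.12 to -0.031 and -0.12 with the length offset. With 1 library left out in edgeR their lowest values were -0.012 and -0.0077. Ndufa10 and Ndufaf5 had log2 fold changes of 0.0019 and 4.312e-06 with upper-quartile scaling, 0.027 and 0.031 with limma on FPKM (filtered or not) and 0.026 and 0.022 with a pseudocount of 1. With the length offset Ndufaf2, Ndufs6 and Ndufs7 had -0.16, -0.0036 and -0.16. With 1 library left out, edgeR gave ranges of -0.015 to 0.0090 for Ndufa10, -0.052 to 0.25 for Ndufa11, -0.035 to 0.52 for Ndufaf3, -0.036 to 0.13 for Ndufaf4, -0.14 to 0.15 for Ndufaf5 and -0.10 to 0.19 for Ndufs7. In DESeq2 the values of changed sign were 0.0086 (Ndufa10), 0.041 (Ndufaf5) and -0.021 (Ndufs7) without KO replicate 2, 0.0040 (Ndufa10), -0.032 (Ndufaf4) and 0.15 (Ndufaf5) without WT replicate 1, and -0.054 (Ndufa11), -0.037 (Ndufaf3) and -0.11 (Ndufs7) without WT replicate 2. Of 492 values of the 26 named members under 19 alternatives, 369 kept direction and call, 80 lost the call, 14 gained one and 29 changed sign.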
